A study of Mus musculus with 2 samples.

Results

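Gap junction and pannexin genes encode the channels through which the cells of the artery wall exchange ions and small molecules. The rule took the rows of 5 named genes: the connexin genes Gja1 (connexin43), Gja4 (connexin37), Gja5 (connexin40) and Gjc1 (connexin45), and the pannexin gene Panx1. All 5 were found among 55573 listed genes, and each passed the filter of at least 10 reads over both libraries. The rule takes them by name and uses no measured value.

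Connexin subunits assemble into hemichannels, and hemichannels of neighboring cells dock to form gap junctions. In the artery wall, gap junctions couple endothelial cells to each other, smooth muscle cells to each other, and both layers across the internal elastic lamina, so that electrical signals spread along and across the vessel. Connexin37, connexin40 and connexin43 are known from arterial endothelium, among other cells, and connexin45 is known from vascular smooth muscle. Whole arteries were sequenced, so these data assign no gene to a cell type. Pannexin 1 is related to the innexins of invertebrates, does not form classical gap junctions, and releases ATP from cells.

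RNA was sequenced from mesenteric arteries, which supply the intestine, of wild type C57BL/6 mice 10 weeks old. Control arteries in 5 mM K+ gave 1 library and arteries depolarized in 60 mM K+ gave the other. The labels give 60 min for either solution, although their general treatment note names 60 mM K+ for both samples, and tissue of 2 mice was pooled in each library. Per the methods of the study, tetrodotoxin was present in all solutions. Because each condition had 1 library, nothing can be checked against replicates and no test of K+ was made. The supplementary methods place control segments distal to a ligature and harvest them ahead of the perfusion with high K+, which the labels do not state. Segment, perfusion and time in solution therefore cannot be told apart from K+, although the study's main text names perfusion with either solution.

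Gene counts totaled 10480918 in the control and 11289598 in the depolarized library. FPKM (fragments per kilobase of gene and 1000000 mapped fragments) was taken as deposited. The log2(fold-change) is the ratio of 60 mM K+ to 5 mM K+ reads with library sizes scaled by TMM, the trimmed mean of M-values of edgeR. Intervals are 95% exact intervals from the read counts and cover counting error only. The smooth muscle markers Acta2 and Myh11 stood at 12480 and 2807 FPKM in 5 mM K+, and 0 of 7 smooth muscle and 0 of 10 endothelial markers were at 0. Tagln, a smooth muscle marker that is abundant in arteries, had only 31.0 FPKM. Markers of fat were lower in 60 mM K+: their summed level was 29.0 FPKM in the control and 11.27 FPKM after depolarization. The 4 pancreatic markers had 10.3 and 35.2 FPKM. The part of these tissue traces in the results below was not tested.

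Each gene was placed on mm9 with the GENCODE vM1 annotation. Gja1 (ENSMUSG00000050953) lies on chromosome 10 from 56097106 to 56110225, plus strand. Gja4 (ENSMUSG00000050234) lies on chromosome 4 from 126988665 to 126991283, minus strand, and Gjc1 (ENSMUSG00000034520) on chromosome 11 from 102660893 to 102681014, minus strand. Panx1 (ENSMUSG00000031934) lies on chromosome 9 from 14809605 to 14849922, minus strand. These 4 genes overlap no other annotated gene. Gja5 (ENSMUSG00000057123) lies on chromosome 3 from 96708616 to 96881339, plus strand, and its annotated span overlaps 2 other annotated genes, 1 of them Gpr89. How reads in the overlap were assigned is uncertain. The longest exact stretch that a member's transcripts shared with those of another connexin or pannexin was 13 to 29 bases.

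The promoters are shown because the study concerns transcription that follows CREB phosphorylation. Gja1, Gja4 and Gja5 were chosen as connexin genes known from endothelium. CREB binds the cAMP response element (CRE), and Fos and Jun proteins bind AP-1 sites. The 250 bases before the transcription start were taken from RefSeq on GRCm38.p6 for Gja1 (chr10:56377050-56377299, plus strand), Gja4 (chr4:127314040-127314289, minus strand) and Gja5 (chr3:97032152-97032401, plus strand). They are written 5′ to 3′ along the gene, and capitals mark matches to the CRE core TGACG or to the AP-1 motif TGANTCA, on either strand.
Gja1: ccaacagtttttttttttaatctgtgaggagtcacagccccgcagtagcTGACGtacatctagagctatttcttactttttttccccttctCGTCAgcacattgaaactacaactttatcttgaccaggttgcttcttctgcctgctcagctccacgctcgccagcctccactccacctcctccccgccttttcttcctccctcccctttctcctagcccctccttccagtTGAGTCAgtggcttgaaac
Gja4: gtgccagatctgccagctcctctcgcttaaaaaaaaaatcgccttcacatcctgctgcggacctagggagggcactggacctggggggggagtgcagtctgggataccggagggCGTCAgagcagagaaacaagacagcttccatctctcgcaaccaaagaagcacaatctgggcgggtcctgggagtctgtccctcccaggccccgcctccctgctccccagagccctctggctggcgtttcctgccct
Gja5: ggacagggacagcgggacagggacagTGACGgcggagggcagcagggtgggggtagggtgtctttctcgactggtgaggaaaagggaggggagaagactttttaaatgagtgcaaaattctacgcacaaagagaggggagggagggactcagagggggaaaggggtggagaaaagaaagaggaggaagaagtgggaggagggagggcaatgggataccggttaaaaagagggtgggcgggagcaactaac

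Gja1 held the AP-1 letters TGAGTCA from 19 to 13 bases before the start, and the CRE core at 201 to 197 bases and, on the opposite strand, at 159 to 155 bases. AP-1 letters occurred in 6.75% of 32851 promoter windows of this length, and 0 of the other 3 members searched had them. The CRE core occurred in 17.8% of windows. Gja4 had 1 copy, 136 to 132 bases before the start, Gja5 had 1 copy at 224 to 220 bases, and Panx1 had 1 copy at 47 to 43 bases. The full CRE, TGACGTCA, which holds the core, was in 0 of 4 member windows and in 1.55% of all windows. The NF-kB motif and the CArG box of serum response factor were in 0 of 4 as well, and in 3.9% and 1.47% of all windows. These matches describe letters only. The promoter of Gjc1 was not analysed here.

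The members differed widely in abundance, and connexin37 was the leading transcript in both libraries. Gja4 had 5860 and 7544 reads in the 5 mM and 60 mM K+ libraries, or 332 FPKM (323 to 340) and 397 FPKM (388 to 406). This level exceeded that of 98.6% of the genes with any reads in each library. Gja5 followed with 1617 and 1210 reads, or 64.4 FPKM (61.3 to 67.7) and 44.8 FPKM (42.3 to 47.4). Gjc1 had 1013 and 751 reads, or 49.5 FPKM (46.5 to 52.6) and 34.1 FPKM (31.7 to 36.6). In FPKM, Gja5 and Gjc1 were thus both lower in the depolarized library. FPKM follows total counts, and with that scaling the median log2(fold-change) of genes with at least 10 reads was -0.21. Gja1 had 281 reads in the control and 650 after depolarization, or 14.6 FPKM (12.9 to 16.4) and 31.4 FPKM (29.0 to 33.9). Panx1 was the least abundant, with 66 and 63 reads, or 2.96 FPKM (2.29 to 3.76) and 2.62 FPKM (2.01 to 3.35). Its intervals overlapped.

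**Figure D1:**
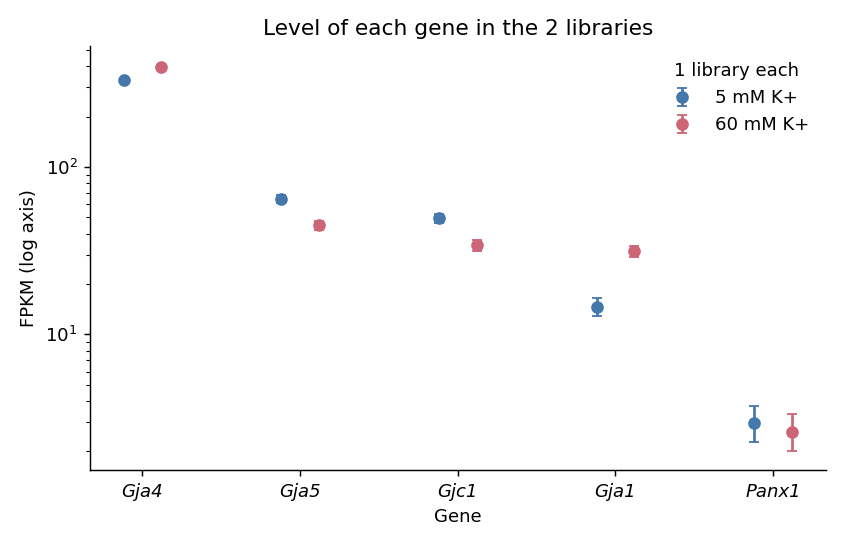
FPKM of each gene on a log axis in the 5 mM K+ library (blue) and the 60 mM K+ library (red), 1 library each, with 95% counting intervals as bars. Gja4 stood highest at 332 and 397 FPKM, Gja1 moved from 14.6 to 31.4 FPKM, close to Gjc1 at 34.1 FPKM, and the bars of Panx1 overlapped.

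In FPKM the order of the genes was the same in both libraries: Gja4, Gja5, Gjc1, Gja1 and Panx1. In 5 mM K+ each neighbor in this order differed beyond counting error. The FPKM of Gja4 was 5.15 times that of Gja5 (4.87 to 5.44), Gja5 was 1.30 times Gjc1 (1.20 to 1.41), and Gjc1 was 3.39 times Gja1 (2.97 to 3.88). In 60 mM K+ the gap between connexin45 and connexin43 transcripts had narrowed: Gjc1 was 1.09 times Gja1, with an interval of 0.977 to 1.21 that holds equal levels. The other neighbors still differed there, with Gja4 at 8.86 times Gja5 (8.34 to 9.42) and Gja1 at 11.97 times Panx1 (9.23 to 15.8). The deposited values rest on a length of 1836 bp for Gja1. With the merged exons of GENCODE vM1, 3105 bp for Gja1 and 5003 bp for Gjc1, the depolarized levels of Gja1 and Gjc1 became 18.5 and 13.3, and Gja1 moved above Gjc1. With merged exons, Gja5 stood at 18.7 in 60 mM K+, close to Gja1. In 5 mM K+ Gja4 and Gja5 stood at 332 and 26.9. The intervals of the ratios above do not cover the choice of length. With the longest annotated transcript of each gene the order stayed as deposited, with Gjc1 at 19.5 and Gja1 at 18.5. Both lengths were tried after the values were seen.

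The 5 genes together summed to 463 FPKM in the control and 509 FPKM in the depolarized library. Of this sum, Gja4 took 71.6% in 5 mM K+ and 77.9% in 60 mM K+. The share of Gja5 went from 13.9% to 8.79% and that of Gjc1 from 10.7% to 6.69%. Gja1 contributed 3.15% and 6.16%. In reads rather than FPKM, the share of Gja4 was 66.3% (exact binomial interval 65.3 to 67.3) and 73.8% (73.0 to 74.7). These shares do not depend on how the 2 libraries are scaled to each other, but those in FPKM depend on the gene lengths used.

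Gja1 had the largest change of the 5. Connexin43 is the most widely expressed connexin of the body and a substrate of many kinases. Its log2(fold-change) was 1.31 (1.11 to 1.52), a 2.48-fold higher level in 60 mM K+ (2.15 to 2.86). It was the only 1 of 5 members past 2-fold higher, and 0 were past 2-fold lower. Among the 14829 genes with at least 10 reads, 5.54% were past 2-fold higher and 5.86% past 2-fold lower. Among the 6549 genes with at least 500 reads, to which Gja1 belongs with 931, these shares were 3.24% and 0.122%, and 1.62% of those genes had a larger log2(fold-change) than Gja1.

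Whether Gja1 was called by the thresholds of the study depended on the values that entered the test. The methods ask for more than 2-fold at a q-value below 0.005 by DEGSeq, after counts were adjusted with a scaling factor of edgeR, and do not say in which unit they entered. The random-sampling test of DEGSeq compares the 2 libraries, not the conditions. On reads, with the fold scaled by TMM, it called Gja1 and 0 of the other 4 members. It called 2.11% of the 21374 genes with a read as higher and 1.1% as lower in 60 mM K+, or 452 and 235 genes. With total counts in place of TMM these were 307 and 542. On TMM-scaled CPM (reads per 1000000), a unit tried after the values were seen, it called 0 members, and the q-value of Gja1 was 0.0300. In that unit 138 genes were higher and 5 lower, 0.646% and 0.0234% of those tested. With edgeR's exact test on reads and an assumed biological coefficient of variation of 0.2, a value not measured here, 0 members were called as well.

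The other 3 connexins changed by less than 2-fold. Gja4 had a log2(fold-change) of 0.47 (0.42 to 0.52), or 1.38-fold higher. Gja5, whose protein carries conducted vasodilation along the endothelium, had a log2(fold-change) of -0.32 (-0.43 to -0.21), or 0.803 of the control level. Gjc1 had nearly the same value, -0.33 (-0.47 to -0.19), or 0.795 of the control level. Over all members, 2 of 5 had counting intervals above 0 and 2 of 5 below 0. Across all genes with at least 10 reads, 25% and 20.3% did, so such a shift is common between these libraries. For Panx1 the log2(fold-change) was 0.03 (-0.49 to 0.55), and with total-count scaling it was -0.17. A change of Panx1 was not detectable at this depth, and its interval spans from 0.713 to 1.47 of the control level.

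**Figure D2:**
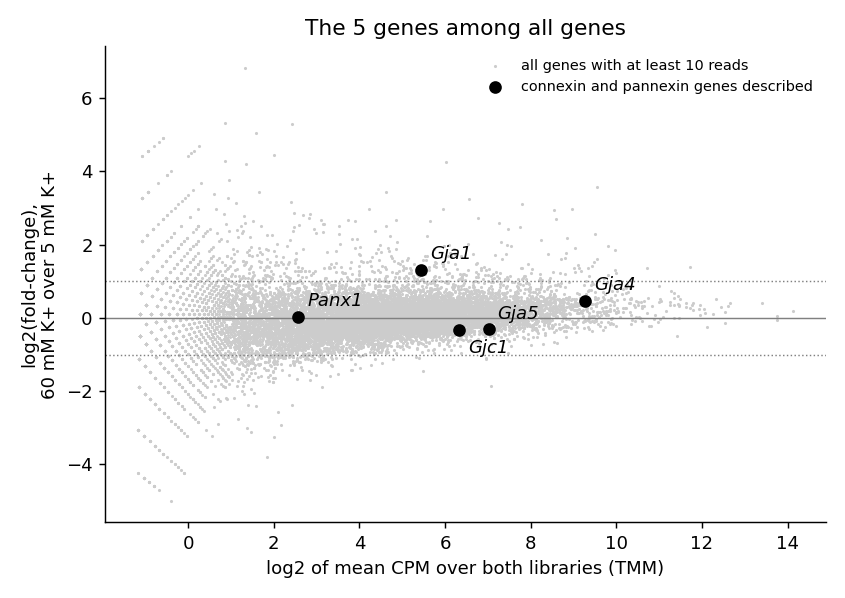
log2(fold-change) of 60 mM K+ over 5 mM K+ against the log2 of the mean TMM-scaled CPM, with the 5 genes in black, all 14829 genes with at least 10 reads in grey, and dotted lines at 2-fold. Gja1 lay above the upper dotted line at 1.31, and Gja4, Gja5, Gjc1 and Panx1 lay between the lines.

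Ratios between members within a library show unequal changes without any scaling. Of 10 pairs of members, 6 differed in log2(fold-change) beyond counting error, and each of the 6 includes Gja1 or Gja4. The share among pairs of all genes was not computed, so the count is not read as particular to these genes. Gja1 exceeded Gja4 by 0.85 (0.64 to 1.06), Gja5 by 1.63 (1.40 to 1.86), Gjc1 by 1.64 (1.39 to 1.89) and Panx1 by 1.28 (0.71 to 1.84). Gja4 exceeded Gja5 by 0.78 (0.66 to 0.90) and Gjc1 by 0.80 (0.65 to 0.94). Gja5 and Gjc1 differed by 0.01 (-0.16 to 0.19), and the FPKM ratio of Gja5 to Gjc1 was 1.30 in the control and 1.31 in the depolarized library. The FPKM ratio of Gja1 to Gja5 went from 0.227 to 0.700.

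Gja1, Gja4 and Gja5 are known from endothelium, so the endothelial markers stand beside them. Of 10 markers, 8 had counting intervals above 0 and 1 below 0, with log2(fold-change) from -1.10 for Kdr to 0.83 for Cdh5, and none was at 0. Their summed level was 1849 FPKM in the control and 2184 FPKM in the depolarized library, of which Pecam1 held 752 and 921 FPKM. The FPKM of Gja4 was 17.9% of this sum in 5 mM K+ and 18.2% in 60 mM K+. That of Gja5 was 3.49% and 2.05%, and that of Gja1 was 0.790% and 1.44%. The counting interval of Gja1 lay above that of 10 of 10 endothelial markers and 7 of 7 smooth muscle markers. The interval of Gja4 lay above that of 5 of 10 endothelial markers and below that of 2, and above that of 6 of 7 smooth muscle markers. The interval of Gja5 lay below that of 8 of 10 endothelial markers. In whole arteries, a change in the number of cells of a type and a change in RNA per cell cannot be told apart, and the part of endothelial content in these values was not tested. For Gjc1, 6 of 7 smooth muscle markers had intervals above its own. Its FPKM was 0.252% of the summed smooth muscle markers in the control and 0.177% in the depolarized library, while that sum was 19605 and 19215 FPKM. The 5 fibroblast markers all had counting intervals below 0, with summed levels of 2262 and 1778 FPKM, beside the lower values of Gja5 and Gjc1. The part of fibroblast content in them was not tested.

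**Figure D3:**
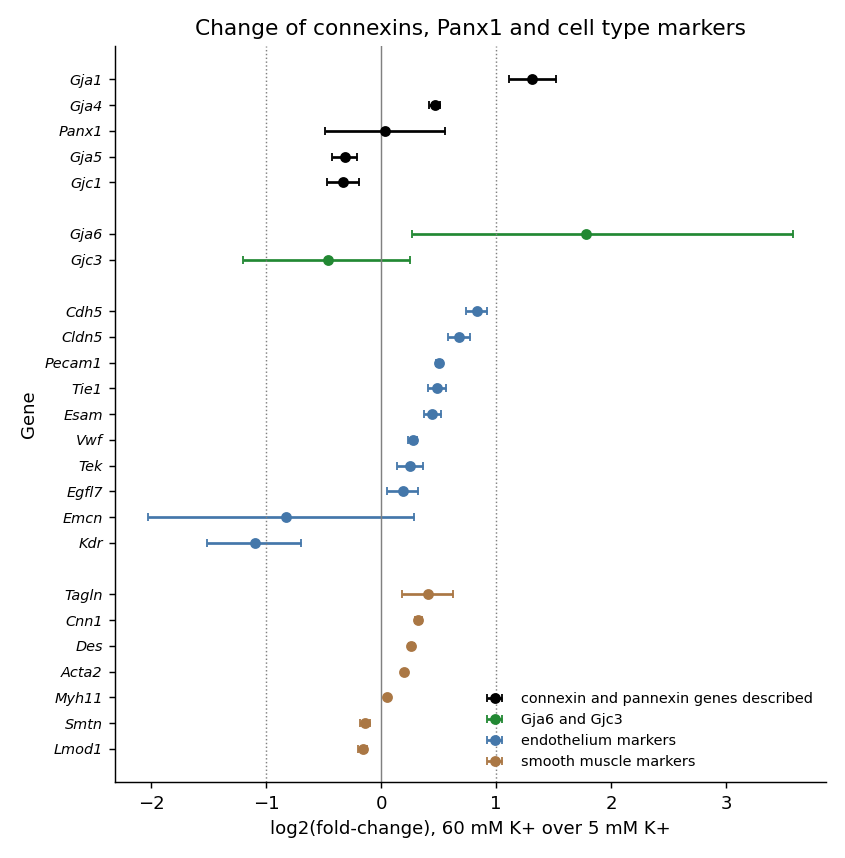
log2(fold-change) of 60 mM K+ over 5 mM K+ with 95% counting intervals for the 5 genes (black), the connexins Gja6 and Gjc3 (green), endothelial markers (blue) and smooth muscle markers (brown), with dotted lines at 2-fold. Gja1 at 1.31 lay above each marker, Gja4 at 0.47 lay among the endothelial markers, and Gja5 at -0.32 lay below 8 of 10 of them.

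The rest of the connexin and pannexin family contributed little. With its 18 other genes, the family comprised 23 listed genes, of which 8 had at least 10 reads, and the 5 members held 99.0% of the family's summed FPKM in the control and 99.2% in the depolarized library. Gjc3 (connexin29), known from myelinating glia, had 43 and 29 reads. Its log2(fold-change) was -0.47 (-1.20 to 0.25), and the 4 Schwann cell markers summed to 67.5 FPKM in the control and 51.8 FPKM in the depolarized library. Gja6 (connexin33), known from testis, had 5 and 16 reads, or 0.237 and 0.703 FPKM. Its log2(fold-change) was 1.78 (0.27 to 3.58), past 2-fold higher, as were 5.54% of all genes with at least 10 reads. The 16 reads of the depolarized library carried Gja6 past that filter. In the family, 15 genes had under 10 reads, 9 of them 0 in both libraries. For these 9, a floor of 3 reads was used in place of the exact interval. It puts their levels at up to 0.266 TMM-scaled CPM in the control and 0.286 in the depolarized library. The other 6 had 1 to 7 reads over both libraries. Panx2 had 1 and 0 reads and Panx3 had 0 in both.

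Proteins that bind or modify these channels and related enzymes were examined as a list of 15 genes, all with at least 10 reads. None was past 2-fold in either direction, beside 5.54% higher and 5.86% lower of all genes with at least 10 reads. The median log2(fold-change) was 0.01, beside -0.0047 over all those genes. Tjp1, which encodes ZO-1, the scaffold that binds the tail of connexin43, had 1542 and 1195 reads and -0.27 (-0.38 to -0.16). Csnk1d, a casein kinase that phosphorylates connexin43, had a log2(fold-change) of 0.79 (0.71 to 0.86). Dbn1 (drebrin), which links connexin43 to actin, had the lowest value, -0.48 (-0.67 to -0.30). The most abundant gene of the list was Cav1, the main coat protein of caveolae, with 540 and 499 FPKM and a log2(fold-change) of 0.10.

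Released ATP acts on P2 receptors and is broken down to adenosine outside the cell. Of 16 genes of this system, 1 of them listed under 2 identifiers, 15 had at least 10 reads. The median log2(fold-change) of these 15 was -0.04. Of them, 1 was past 2-fold higher and 1 past 2-fold lower, beside 5.54% and 5.86% of all genes with at least 10 reads. P2ry2, a receptor for ATP and UTP, had 129 and 252 reads, and its log2(fold-change) was 1.07 (0.76 to 1.38). P2ry12, the platelet and microglial receptor for ADP, had 11 reads and 1 read, a log2(fold-change) of -3.36 with an interval from -8.79 to -0.58. P2rx1, the ATP-gated cation channel of arterial smooth muscle, was the most abundant of the list at 576 and 554 FPKM, with a log2(fold-change) of 0.15 (0.11 to 0.19). P2rx7, an ATP-gated channel often linked to pannexin 1, had -0.37 (-0.66 to -0.08). Entpd1, the main ectonucleotidase of vessels, had 357 and 300 FPKM and a log2(fold-change) of -0.04 (-0.11 to 0.02).

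**Figure D4:**
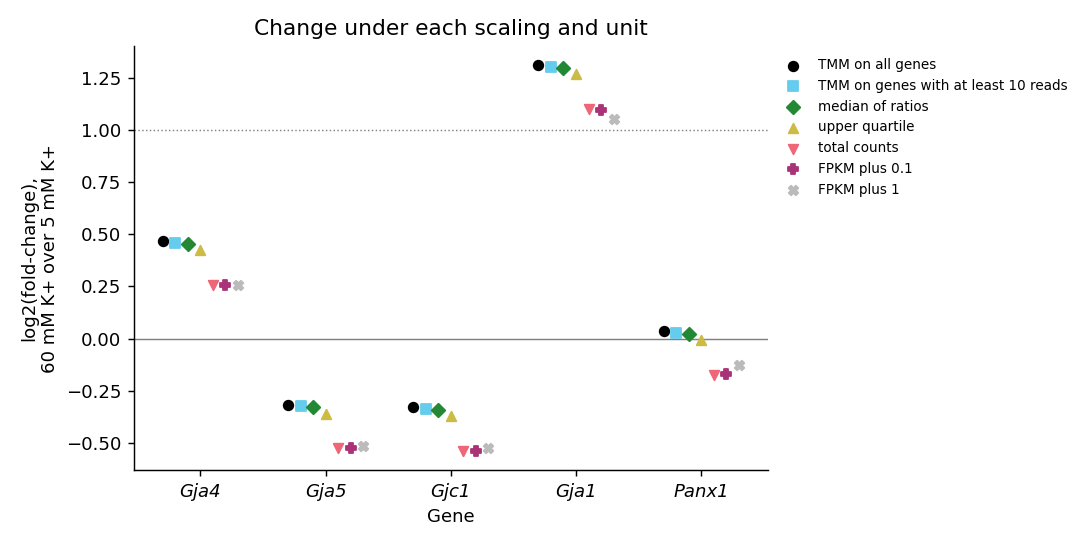
log2(fold-change) of each gene under TMM on all genes (black circles) and 6 other settings, with the 2-fold line dotted. Gja1 stayed between 1.05 and 1.31, Gja4 stayed above 0, Gja5 and Gjc1 stayed below 0, and Panx1 ran from -0.17 to 0.03 across 0.

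The scaling shifts all genes together, and total counts in place of TMM lowered every log2(fold-change) by 0.21. Gja1 was past 2-fold higher under each of the 6 other settings for scaling and unit, and its lowest value was 1.05. Gja4 ranged from 0.26 to 0.47, Gja5 from -0.53 to -0.32 and Gjc1 from -0.54 to -0.33, so their directions held under these settings. Panx1 changed sign among them.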

How the data were processed

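Poly-A RNA of mouse mesenteric arteries was sequenced per the labels, and the methods of the study name alignment to mm9 with TopHat2. The submitters' processing notes name TopHat2 2.0.12, HTSeq 0.6.1 and edgeR 3.0.8. The authors deposited raw read counts per gene and FPKM values. For 10353 genes, the ratio of counts to FPKM differed between the libraries by the same factor as the total reads, 0.928, so the deposited FPKM follows total counts. The annotation used for counting is not given in the sources used here; 32601 of the 55573 listed genes are in GENCODE vM1, with 99.09% and 99.15% of the reads.

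Factors were computed with edgeR 4.0.16 and DESeq2 1.42.0 in R 4.3.3, and intervals with SciPy 1.17.1 in Python 3.11.15. Counts of 0 entered with 0.5 reads. The random-sampling test was computed from its formula on reads, not with the DEGSeq package, with Benjamini-Hochberg adjustment over all genes with a read. It was tried on simulated counts that held counting error only, so that trial says nothing about spread between animals. Without replicates no quasi-likelihood fit was made, and p-values across genes are not given. No molecular identifiers are described, so intervals cover counting error only.

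The members and lists were chosen with earlier results of these data known. Named are the members, other family genes with at least 10 reads, and from each other list the genes past 2-fold, the most abundant and the most changed; Tjp1, Csnk1d, Dbn1, P2rx7, Entpd1, Panx2 and Panx3 were added after their values were seen, and so were the markers named singly. The other alternatives were median-of-ratios and upper-quartile scaling, TMM on genes with at least 10 reads, FPKM with pseudocounts of 0.1 and 1, a 1.5-fold limit, a q-value of 0.05, an exact binomial test and assumed coefficients of variation of 0.2 and 0.4. Figures used matplotlib 3.10.9. Protein sequences were not used here. Some genes that this rule names are not reported here.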

Additional observations from a re-analysis of the deposited data

How the results depend on the processing

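No paired analysis was possible because 1 library stood for each condition, and for the same reason no library could be left out. Median-of-ratios and upper-quartile scaling and TMM on genes with at least 10 reads kept all 5 log2(fold-change) values within their counting intervals. Total counts lowered them by construction: Gja1 to 1.10, Gja4 to 0.26, Gja5 to -0.53 and Gjc1 to -0.54. With FPKM, which is scaled by total counts, Gja1 was 1.10 with a pseudocount of 0.1 and 1.05 with 1, Gja4 was 0.26 with both, Gja5 was -0.52 with both, and Gjc1 was -0.54 and -0.53. Panx1 stayed within its counting interval in these settings. The count of members past 2-fold was 1 in each setting, and 1 with a 1.5-fold limit. By the study's thresholds, tested on reads, 1 member was called with every scaling, the exact binomial test, a q-value of 0.05 and the filter on low counts. With an assumed coefficient of variation of 0.2 or 0.4, settings that add variation, 0 members were called, and with the test on TMM-scaled CPM, chosen after seeing the data, 0 were called as well. Under those 3 settings 73, 0 and 143 genes were called in all, the last as 138 higher and 5 lower, beside 687 on reads. Shares of the summed level differed between FPKM and reads, in 5 mM K+ with 71.6% and 66.3% for Gja4 and 13.9% and 18.3% for Gja5. What limits these results is the single library per condition: counting error is small for Gja4 and large for Panx1, and the spread between animals is unknown.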
